A study of Mus musculus with 32 samples.

Results

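Among the Gm-numbered genes of the mouse, 40 stood out by a high level in WT embryos just after the first cleavage and a low level both before and after it. Genes named Gm with a number are annotated loci that have not yet been given a functional name. The members were chosen from the authors' FPKM values (reads relative to gene length and library depth): a mean of at least 10 in WT early 2-cell embryos, and at least 4 times the mean of WT eggs and the mean of WT late 2-cell embryos. The symbols Gm2016, Gm2022, Gm4027 and Gm4850 were left out by the same rule. The 40 members come from 54532 genes in the table, of which 26294 are other Gm-numbered genes. The WT means of the 3 stages chose the members, so they are described here without a test. The stage tests use libraries that the rule did not use. The genotype comparisons set those libraries against the WT libraries that chose the members, so their values are descriptions and support nothing about the members.

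Each of the 32 libraries was made from a single metaphase II egg or a single 2-cell embryo, and the study compared WT with Trp53 knockout material at 3 stages. Among eggs, 3 were WT and 3 carried the label Trp53 KO. At the early 2-cell stage 8 embryos were WT and 6 were labelled as maternal and zygotic knockout (Trp53 MZ-KO), and at the late 2-cell stage each genotype had 6. The knockout allele lacks exons 2 to 10 of Trp53 and was made from a floxed allele with a Cre driven by the germ cell gene Ddx4. MZ-KO embryos had a knockout mother and a knockout father, while WT controls came from Trp53 flox/flox animals on the same mixed Bl6/C57 background, so both arms derive from the floxed line. Early embryos were taken 28 to 32 hours and late embryos 48 hours after the ovulation hormone hCG, and all embryos were cultured in KSOM medium. The number of mothers behind a group is not given in the sources used here, so p-values measure the spread between single eggs or embryos, some of which may be littermates.

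A fertilised egg starts with RNA stored during oocyte growth. In the mouse the embryonic genome is first transcribed at a low and permissive level around the first cleavage and then, in the late 2-cell embryo, in a major wave, while stored RNA is degraded. Dux, a homeobox transcription factor expressed briefly at this time, turns on a group of genes and repeats that includes the Zscan4 family. Many Gm-numbered genes are processed pseudogenes, that is, copies of a spliced mRNA that were inserted elsewhere in the genome, and others are members of tandem families or long non-coding RNAs.

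The libraries carried 7213004 to 27593819 reads behind the FPKM scale (median 18260938) and 6088 to 9745 genes at FPKM 1 or more. Trp53 lay between 2.60 and 9.29 FPKM in WT early embryos and between 0.311 and 1.11 in the MZ-KO ones (limma on log2 values, -1.92 with SE 0.25, adjusted p = 0.00126). In eggs and late embryos the ranges of Trp53 overlapped between genotypes, so these knockout groups are named by their labels. WT early library 3 stood apart from its group, with a median Spearman correlation of 0.808 against 0.864 to 0.889 for the other 7 (libraries are numbered in the order of the table's columns, and the numbers pair nothing). The 8 oocyte and egg markers summed to 1662 to 1984 FPKM in eggs, 921 to 1693 in early embryos (921 in WT early library 3) and 459 to 732 in late embryos. They did not move together from WT eggs to WT early embryos. Gdf9 (means of 699 and 70.2), Dppa3, Zp1 and Zp3 were lower in the embryos, while Bmp15 (167 and 594), Ooep, Zp2 and Nlrp5 were higher. The 10 cumulus and granulosa cell markers summed to 0.172 to 1.42 FPKM over all libraries. The 6 sperm markers summed to at most 1.99 FPKM in eggs and early embryos and to 7.599 to 28.7 in late embryos. The late sum came mostly from Prm1 (means of 15.5 in WT and 8.80 in MZ-KO late embryos). Prm2 and Odf1 had lower means in late than in early embryos. Tnp1 and Tnp2 had group means of at most 0.184 and 0.0278, and Smcp was at 0 in every group mean. The part of the sperm markers in the results was not tested.

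The 40 genes are short and mostly unspliced. In the annotation, 16 are processed pseudogenes, 6 are protein coding, 4 are unprocessed pseudogenes, 1 is a transcribed unprocessed pseudogene, 4 are antisense RNAs, 4 are long intergenic RNAs, 2 are unsorted transcripts to be experimentally tested, and the miRNA, snRNA and snoRNA classes hold 1 each. The genomic span runs from 80 to 6879 bp with a median of 506 bp, against 765 bp for the 558 other Gm-numbered genes at 10 FPKM or more in WT early embryos, and 30 of the 40 have a single exon. Chromosome 12 holds 9 members, or 22.5%, and chromosome 10 holds 7, or 17.5%. Of the 558 genes, 6.27% lie on chromosome 12 and 4.48% on chromosome 10. Several of the members on these chromosomes are copies of each other, so they are not independent counts.

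Most of the members can share reads with another gene. The values were counted over the whole genomic span, and the library method does not mark the strand. 17 members overlap another annotated gene, 20 have a near-identical transcript elsewhere (at least 95% identity over at least 80% of the length), 31 have one or the other, and 9 have neither. The 9 are the long intergenic RNAs Gm15767, Gm47432 and Gm48704, the processed pseudogenes Gm4862, Gm5401, Gm6018, Gm6494 and Gm7825, and the protein-coding gene Gm5039. Gm5039 still holds a stretch that is 97.0% identical to the whole of Gm6803, described further on. For the other 31, reads from a copy or an overlapping gene can be part of the value.

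The kind of sequence that was measured is seen in Gm27684 (mm10, chromosome 7, 115172273 to 115172352), annotated as a miRNA gene. Its whole 80 nucleotides lie inside the ribosomal protein pseudogene Rpl19-ps10 and match the mRNA of Rpl19, a protein of the large ribosomal subunit, at 97.5% identity. The differing bases are in capitals.
Gm27684: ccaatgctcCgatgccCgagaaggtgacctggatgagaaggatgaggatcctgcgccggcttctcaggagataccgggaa
Rpl19: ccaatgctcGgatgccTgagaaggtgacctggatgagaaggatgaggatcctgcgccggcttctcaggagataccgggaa
It was listed at 0 in all 3 WT eggs and, in the eggs labelled KO, at 12.1, 0 and 0 FPKM. It reached a median of 17.7 (5.52 to 26.9) in WT early embryos, which rested on a median of 22 reads.

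The member with the highest level, Gm3470 (chromosome 5, 99021803 to 99022222), shows how close a processed pseudogene can be to its source. Over its 420 nucleotides it differs at 1 position from Rbpms2, which encodes an RNA-binding protein, and it lies in an intron of Prkg2 on the same strand. Nucleotides 45 to 164 of Gm3470, with the differing base in capitals, are set beside Rbpms2.
Gm3470: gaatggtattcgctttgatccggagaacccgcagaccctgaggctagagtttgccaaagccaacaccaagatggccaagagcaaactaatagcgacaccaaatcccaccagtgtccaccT
Rbpms2: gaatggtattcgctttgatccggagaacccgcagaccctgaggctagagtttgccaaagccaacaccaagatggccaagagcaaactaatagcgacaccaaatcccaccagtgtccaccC
A median of 2279 reads lay behind Gm3470 in WT early embryos and 7315 behind Rbpms2, whose FPKM was only 12.8 because its span is 30881 bp. Reads from the identical stretches fit both genes.

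Across the 40 members, the mean in WT early embryos ran from 10.9 to 285 FPKM with a median of 21.7. The summed level of the members was 235, 258 and 323 FPKM in the 3 WT eggs. In WT early embryos it was 1775 at the lowest, 2202 at the median and 2372 at the highest, or 1.41% to 1.81% of all FPKM of a library. In WT late embryos it was 116, 211 and 244. The peak in WT is what the rule selected. In eggs labelled KO the sum was 236, 325 and 404 FPKM, in early embryos labelled MZ-KO 1506, 1911 and 2062 (lowest, median, highest), and in late embryos labelled MZ-KO 223, 258 and 367. All 14 early embryos stood above all eggs and all late embryos, in WT and in the libraries that the rule did not use.

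**Figure D1:**
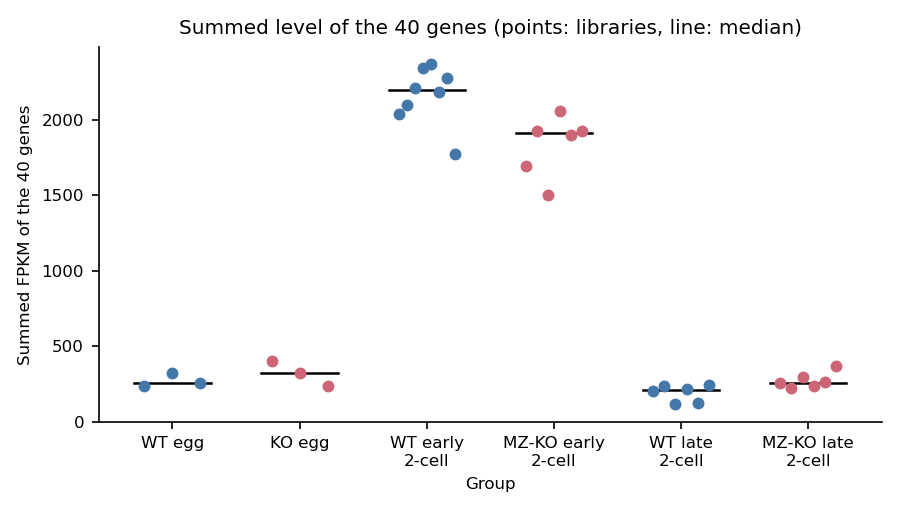
Summed FPKM of the 40 genes (vertical axis) in each library (points), by group, with the group median as a line. The 14 early embryos lie between 1506 and 2372 and all eggs and late embryos at 404 or less; the WT groups were used to choose the genes.

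**Figure D2:**
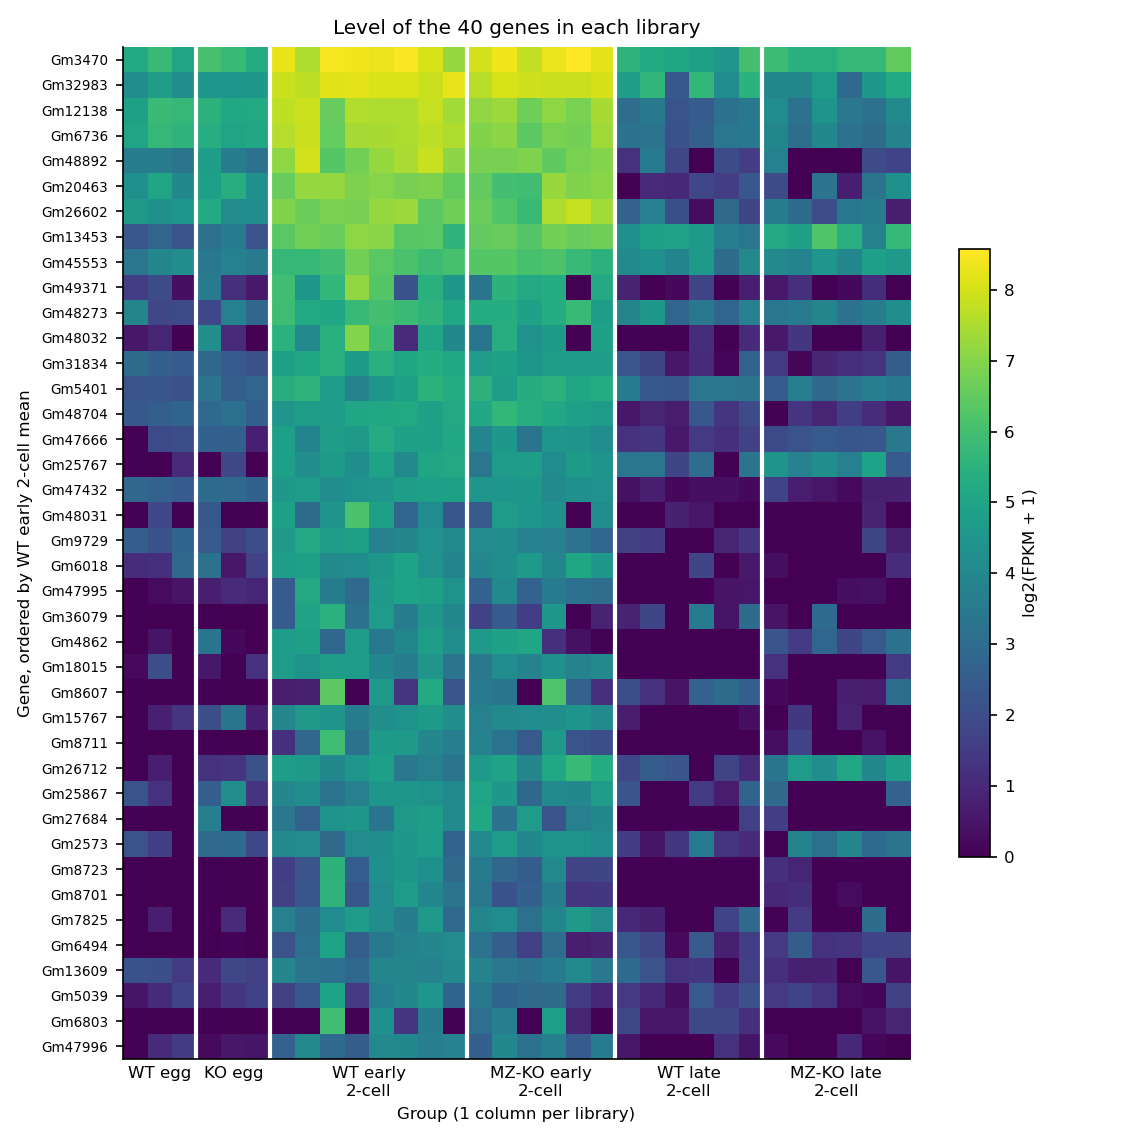
Level of each of the 40 genes (rows, ordered by their mean in WT early embryos) in each of the 32 libraries (columns, by group), as log2(FPKM + 1) in colour. The 2 middle blocks hold the 14 early embryos, where 33 of the 40 genes were above 0 in every library.

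The processed pseudogenes held 6 of the 10 highest levels. Gm3470 was at 36.4, 54.7 and 30.8 FPKM in WT eggs, at 148, 314 and 364 (lowest, median, highest) in WT early embryos and at 21.3, 33.8 and 64.7 in WT late embryos. Gm32983 (chromosome 7, 67593659 to 67594163), an 87.9% identical copy of the galectin-like gene Lgalsl inside an intron of Lrrc28 on the other strand, was at 17.6, 27.1 and 17.7 in WT eggs and at 212, 274 and 313 in WT early embryos. Its coefficient of variation over the WT early embryos, 12.8%, was the lowest of the 40. Gm48892 (chromosome 10), 82.1% identical to the oocyte gene Nlrp9b, was at 78.5, 142 and 252 in WT early embryos. Gm13453 (chromosome 2), 99.4% identical to Atp6v1g1, a subunit of the proton pump of vesicles, was at 46.6, 89.8 and 137.

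Gm12138 (chromosome 11) and Gm6736 (chromosome 12) are 99.2% identical to each other and belong to a family of processed copies of Akr1b3, the aldose reductase that turns glucose into sorbitol. In WT early embryos Gm12138 had 94.7, 188 and 242 FPKM and Gm6736 had 93.3, 183 and 236 (lowest, median, highest). The copies Gm6644 and Gm38056, which are 99.2% identical to Gm12138 and 99.6% to Gm6736 but outside the rule, had means of 569 and 118. The lowest value of both members came from WT early library 3. Akr1b3 itself had a mean of 3.34.

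Of the 10 members with the highest WT early mean, 7 overlap another gene: Gm3470, Gm32983, Gm6736, Gm48892, Gm20463, Gm26602 and Gm49371. Gm20463 (chromosome 17, 34601151 to 34601576) is antisense to Rnf5, a ubiquitin ligase, and touches its exons, and Gm26602 (chromosome 10, 79910856 to 79911140) lies opposite R3hdm4. Gm20463 had 89.8, 117 and 149 FPKM and Gm26602 had 83.5, 113 and 155 in WT early embryos. Of the 17 overlapping members, 15 lie wholly inside the other gene, so with counts over the whole span and no strand their reads are also that gene's. Gm31834 lies within Txndc5 over 25.8% of its length and Gm49371 within AC127242.1 over 73.7%.

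The long intergenic RNA Gm47432 (chromosome 12, 67651385 to 67658263) overlaps no other gene and has no near-identical copy. Its FPKM was 6.14, 5.42 and 4.53 in WT eggs. It was 17.3, 24.3 and 28.6 (lowest, median, highest) in WT early embryos and at most 0.660 in WT late embryos. The coefficient of variation over the WT early embryos was 16.8%, and that of Gm48704, another long intergenic RNA, was 17.8%.

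In the libraries that the rule did not use, most members rose from egg to early embryo. Between eggs labelled KO and early embryos labelled MZ-KO, 31 of the 40 members rose and 0 fell (limma, Benjamini-Hochberg adjusted p below 0.05), where 29.2% of all 8305 genes tested rose and 1665 genes fell. The median log2 difference was 2.33 for the members and 0.09 for all genes. All differences are of log2(FPKM + 1), which understates the change of low genes. In 8 of the 40 members no KO egg reached the filter value of 1 FPKM. The filter asked for 3 libraries, so members with fewer than 3 KO eggs at 1 FPKM also passed through early embryos. Gm25767 and Gm7825, which had the largest rises called, are among these, and the filter favours a rise in such members. The 31 include calls of such members, so 31 of 40 beside 29.2% is a description and adds no support. With no filter 29 of 40 rose, the calls of Gm6494 (limma adjusted p = 0.0723) and Gm27684 (0.126) being lost. All MZ-KO early embryos were above all KO eggs for 30 members, which was so for 26.4% of all genes tested. By class, 13 of the 16 processed pseudogenes rose, 4 of 4 antisense RNAs, 3 of 4 long intergenic RNAs, and 3 of the 6 protein-coding genes. All 4 antisense RNAs touch exons of a gene on the other strand, so without strand their reads can be that gene's. No share over all genes of a class was computed, so these counts are a description. Among the 9 members with neither an overlapping gene nor a near-identical copy, 7 rose. With the libraries scaled by median ratios, 31 members again rose, while 2112 of 8185 genes rose and 2217 fell and the median over all genes moved from 0.09 to -0.05.

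The largest rise called was that of Gm25767, a snoRNA gene (chromosome 5, 36671658 to 36671781) within D5Ertd579e on the other strand. Small nucleolar RNAs guide the chemical modification of other RNAs. Its FPKM was 0, 2.66 and 0 in KO eggs and 9.38, 22.5 and 26.2 (lowest, median, highest) in MZ-KO early embryos. The groups did not overlap, and the log2 difference was 3.73 (SE 0.45, limma adjusted p = 0.000149). Its near-identical copy is Gm23823, and the first 120 nucleotides of both are given with the 1 differing base in capitals.
Gm25767: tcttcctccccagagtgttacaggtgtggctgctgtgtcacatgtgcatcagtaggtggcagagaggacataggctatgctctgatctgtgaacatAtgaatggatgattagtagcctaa
Gm23823: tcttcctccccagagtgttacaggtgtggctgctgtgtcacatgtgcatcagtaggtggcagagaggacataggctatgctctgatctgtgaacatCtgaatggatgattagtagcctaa

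Gm7825 (chromosome 6), 92.3% identical to Ube2v1, a partner of ubiquitin-conjugating enzymes, rose next. It was at 0, 1.06 and 0 FPKM in KO eggs and at 8.05, 15.5 and 23.3 in MZ-KO early embryos, a log2 difference of 3.64 (SE 0.32, limma adjusted p = 2.75e-05). Gm13453 went from 7.89, 10.5 and 3.62 to 77.4, 95.1 and 109, a log2 difference of 3.61 (SE 0.25, adjusted p = 7.03e-06). Neither pair of groups overlapped. Gm26712 rose by 3.39 on the log2 scale (SE 0.37, adjusted p = 8.44e-05) and Gm32983 by 3.38 (SE 0.12, adjusted p = 3.37e-07), and in both all 6 MZ-KO early embryos were above all 3 KO eggs.

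The 9 members without a call at this step were Gm5039, Gm25867, Gm4862, Gm36079, Gm48032, Gm6803, Gm49371, Gm48031 and Gm8607. Their log2 differences ran from 1.19 for Gm5039 to 2.82 for Gm8607 (adjusted p = 0.0884 and 0.0555), and all 9 had groups that overlap. Without MZ-KO early library 5, Gm49371 (adjusted p = 0.00677), Gm48031 (0.00413) and Gm48032 (0.0271) were called by limma.

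From early to late embryos labelled MZ-KO, 33 of the 37 members tested fell and 0 rose, where 33.3% of all 8944 genes tested fell and 48.3% rose. Gm36079, Gm48031 and Gm6803 did not pass the filter, and 2 of the 37 had no MZ-KO late embryo at 1 FPKM. The filter asked for 6 libraries, so members with fewer than 6 late embryos at 1 FPKM also passed through early embryos. Among these are Gm48892, Gm20463, Gm48704, Gm26602 and Gm6018, which had the largest falls called, and the filter favours a fall in such members. The 33 include calls of such members, so 33 of 37 beside 33.3% is a description and adds no support. With no filter 32 of 40 fell. The median log2 difference was -3.08 for the members and 0.39 for all genes. This comparison shares the MZ-KO early embryos with the one before it, so the counts of the 2 are not independent. All MZ-KO late embryos were below all MZ-KO early embryos for 27 of the 40 members, and for 25.7% of all genes tested. The fall covered 4 of 4 antisense RNAs, 4 of 4 long intergenic RNAs, 4 of 4 unprocessed pseudogenes, and 7 of the 9 members with neither an overlapping gene nor a near-identical copy. Of these, Gm15767, Gm8701, Gm8711 and Gm8723 had MZ-KO late medians of 0, 0.093, 0.12 and 0 FPKM and passed the filter through early embryos. Their calls add no support, and the counts by class are a description. The antisense RNAs overlap other genes, and their values carry no strand. The call of Gm8607 (log2 difference -2.05, limma adjusted p = 0.0428) was lost without any 1 of several libraries, with adjusted p up to 0.108 over the alternatives. Gm2573 (-1.40, adjusted p = 0.0272) lost its call with no filter (0.074), with a pseudocount of 0.1 (0.0861) and without MZ-KO early library 2 (0.0549).

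Gm48892 had the largest fall called, from 89.1, 114 and 126 FPKM in MZ-KO early embryos to 0, 1.17 and 12.6 in MZ-KO late embryos (lowest, median, highest). The log2 difference was -5.57 (SE 0.56, limma adjusted p = 4.25e-07), and the groups did not overlap. Gm20463 went from 60.1, 106 and 150 to 0, 5.86 and 18.5, a log2 difference of -4.35 (SE 0.63, adjusted p = 1.83e-05). Gm48704 fell by 4.23 on the log2 scale (SE 0.25, adjusted p = 2.35e-09), and the log2 differences of Gm26602 and Gm6018 were -4.17 (SE 0.51, adjusted p = 3.32e-06) and -4.16 (SE 0.24, adjusted p = 1.34e-09). Gm6018 is 86.1% identical to Mad1l1, a gene of the spindle checkpoint. In each of these 5 genes all late embryos were below all early embryos.

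4 of the 37 members tested had no call at this step. Gm26712 was at 14.01, 32.3 and 53.3 FPKM (lowest, median, highest) in MZ-KO early and at 9.14, 21.6 and 34.5 in MZ-KO late embryos, a log2 difference of -0.59 with a 95% interval of -1.32 to 0.14 (limma adjusted p = 0.12). Gm25767 was at 4.49, 15.6 and 30.1 in MZ-KO late embryos, a difference of -0.41 (interval -1.21 to 0.38, adjusted p = 0.312). In Gm4862 and Gm6494 the differences were -0.36 (adjusted p = 0.716) and -0.35 (adjusted p = 0.464). The early and late ranges overlapped in all 4. Gm26712 was called lower with median-ratio scaling (-0.88, adjusted p = 0.0236) and without MZ-KO early library 3 (-0.80, adjusted p = 0.0314).

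**Figure D3:**
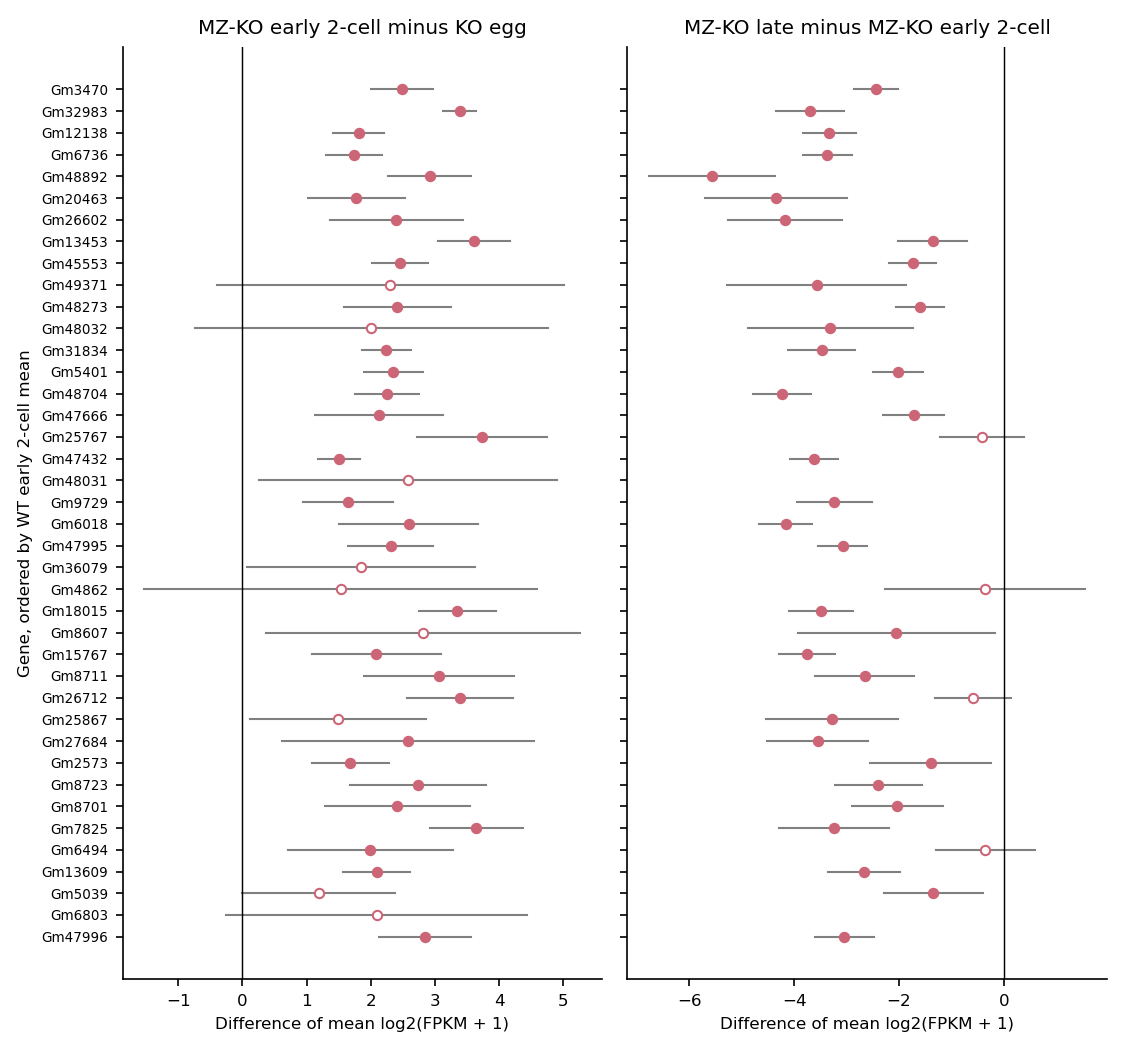
Difference of mean log2(FPKM + 1) for each gene (rows) between eggs labelled KO and early embryos labelled MZ-KO (left) and from early to late embryos labelled MZ-KO (right), with 95% intervals. Filled points passed the test (31 rose at left and 33 fell at right); both panels use the same 6 early embryos, and 3 genes not tested at right have no point there.

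On their own means, the libraries labelled knockout met the whole rule for 15 of the 40 members. The mean of MZ-KO early embryos was at least 10 FPKM for 31 members, at least 4 times the KO egg mean for 30 and at least 4 times the MZ-KO late mean for 31. Choosing members on WT means favours fewer of them meeting the rule in other libraries. No share over other genes was computed, so these counts are a description and say nothing about genotype. Just inside the rule in WT were Gm25767 (4.03 times the late mean), Gm48273 (4.10 times the late mean) and Gm13609 (4.13 times the egg mean). Just outside were Gm23179 (3.98 times the egg mean), Gm47441 (a WT early mean of 9.92 FPKM) and Gm44621 (3.95 times the egg mean). The rule therefore cuts through a continuous range of levels.

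Single embryos differed far more in some members than in others. The coefficient of variation over the 8 WT early embryos had a median of 36.04% and exceeded 100% for Gm6803 (182%) and Gm8607 (157%). The 5 most variable members, Gm6803, Gm8607, Gm8711, Gm8701 and Gm8723, belong to 2 sequence families. All 5 were listed at 0 in all 6 eggs, as was Gm36079.

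Gm8701, Gm8711 and Gm8723 are unprocessed pseudogenes on chromosome 10 between 100330540 and 100377279. Gm8723 and Gm8701 are identical over 818 nucleotides, and Gm8711 is 98.9% identical to Gm8701. The stretch with most of their differences holds a run of CAG repeats, given from nucleotide 640 to 759 of Gm8711 with its differing bases, including 6 added ones, in capitals.
Gm8711: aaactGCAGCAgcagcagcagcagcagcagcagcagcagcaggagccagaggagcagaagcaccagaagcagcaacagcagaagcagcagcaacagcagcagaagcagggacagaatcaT
Gm8701: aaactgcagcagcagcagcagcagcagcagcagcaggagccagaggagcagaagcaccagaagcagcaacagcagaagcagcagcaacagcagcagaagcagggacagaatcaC
In WT early libraries 1 to 8, Gm8711 stood at 1.25, 6.09, 59.3, 8.13, 24.2, 24.2, 14.7 and 11.6 FPKM. In the same order Gm8701 stood at 2.15, 3.88, 46.9, 3.91, 16.5, 25.4, 15.0 and 8.72. In both, library 3 was highest, libraries 5 and 6 followed and library 1 was lowest, and Gm8723 went from 1.98 in library 1 to 45.9 in library 3. All 3 were listed at 0 in all WT late embryos. In MZ-KO early embryos Gm8711 had 3.13, 6.47 and 23.3 (lowest, median, highest), above 0 in all 6. All 3 were listed at 0 in the KO eggs and passed the filter of the egg-to-early comparison only through early embryos, so their calls there add no support.

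The other variable family lies on chromosome 12 near 88 Mb and resembles Eif1a, a translation initiation factor that helps the ribosome find the start codon. Gm6803 and Gm5039 are annotated as protein coding and Gm8607 as a pseudogene. Gm6803 (88018337 to 88018771) is 98.4% identical to Gm2022, which the rule left out, and 98.2% identical to Gm8607. The 120 nucleotides of Gm6803 from 171 to 290 differ from Gm2022 at the 4 bases in capitals.
Gm6803: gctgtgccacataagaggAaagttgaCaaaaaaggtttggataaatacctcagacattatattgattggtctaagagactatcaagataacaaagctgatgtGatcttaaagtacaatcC
Gm2022: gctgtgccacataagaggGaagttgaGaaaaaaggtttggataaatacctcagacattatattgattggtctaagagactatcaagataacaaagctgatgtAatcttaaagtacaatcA
Gm6803 stood at 0, 0, 60.0, 0, 18.8, 1.59, 11.1 and 0 FPKM in WT early libraries 1 to 8. Gm8607 stood at 0.602, 0.684, 84.6, 0, 23.4, 1.47, 37.1 and 3.86, and Gm5039 at 2.16, 4.19, 30.5, 1.65, 11.7, 14.5, 21.8 and 5.75. All 3 were highest in library 3, and libraries 5 and 7 were above libraries 1, 2, 4 and 8. Among MZ-KO early embryos, library 4 was highest in Gm8607 (73.3) and Gm6803 (27.4), and library 3 was at 0 in both. Without WT early library 3, 37 of the 40 members still met the rule, and the 3 that did not were Gm6803 (mean 4.50 FPKM instead of 11.4), Gm8607 (9.59 instead of 18.97) and Gm5039 (8.81 instead of 11.5).

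The protein-coding member Gm36079 (chromosome 13, 120026439 to 120027011) lies 132 kb from the 2-cell gene Tcstv1 and is 99.8% identical to Gm21188. It stood at 4.53, 29.6, 43.9, 8.32, 25.5, 11.5, 21.9 and 14.3 FPKM in WT early libraries 1 to 8, highest again in library 3. The Dux and 2-cell list, 33 genes that are not members, summed to 798 FPKM in WT early library 3 and to 82.7 to 339 in the other 7. In MZ-KO early embryos that list was also highest in library 4 (300 FPKM) against 110 to 245 in the other 5. The list holds Gm2016, Gm2022 and Gm4027, which lie near Gm6803 on chromosome 12. Gm2022 is 98.4% identical to Gm6803, so the list and the members can share reads, and the part of such reads was not tested. Gm6494, a processed pseudogene on chromosome 10 and 525 kb from Duxf3 (the Dux gene in this annotation), had its highest WT early value in library 3 as well, at 30.04 FPKM. Duxf3 itself was lowest there, at 1.15 FPKM against 1.54 to 5.20 in the other 7 WT early embryos. In MZ-KO early library 4, Duxf3 was at 7.67 FPKM, next to the highest of the 6 MZ-KO early embryos (0.764 to 8.81).

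Promoter sequences were at hand for 6 of the 40 members, of which only Gm6803 is among the most variable members named above. In the RefSeq windows from 250 bases before to 50 bases after the start (build GRCm38.p6), TGATTNAATCA, a palindrome taken as the Dux site, occurred on neither strand in the 6, and in 0.0335% of all 32851 windows. The shorter GATTNAA, which lies within it, was also in 0 of 6 and in 9.45% of all windows. TATAAA on either strand was in Gm6803 alone, and in 13.6% of all windows. In Gm6803 it lies in the first part of the window, far before the start, and its role was not tested. The windows of Gm6803 and Gm36079, both at 0 in all eggs, are given with TATAAA in capitals, from the minus strand at chr12:88018958-88019257 and chr13:120027330-120027629.
Gm6803: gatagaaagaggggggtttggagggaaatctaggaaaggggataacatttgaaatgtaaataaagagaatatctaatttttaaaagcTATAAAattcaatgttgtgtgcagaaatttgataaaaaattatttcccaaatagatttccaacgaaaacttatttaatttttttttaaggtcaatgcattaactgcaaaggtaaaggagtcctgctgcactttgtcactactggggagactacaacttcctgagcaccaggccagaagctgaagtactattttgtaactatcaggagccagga
Gm36079: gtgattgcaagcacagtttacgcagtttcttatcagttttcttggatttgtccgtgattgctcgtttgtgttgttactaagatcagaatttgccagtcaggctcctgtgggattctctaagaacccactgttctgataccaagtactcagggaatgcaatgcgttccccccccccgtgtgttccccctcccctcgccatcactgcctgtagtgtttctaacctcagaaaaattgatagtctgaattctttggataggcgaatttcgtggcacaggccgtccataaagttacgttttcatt

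Another set of members was high and low in a different order of embryos. Gm49371, a long intergenic RNA on chromosome 12 (19560110 to 19564157), shares sequence with the small pseudogenes Gm48032 (22667528 to 22667632) and Gm48031 (22666701 to 22666844), which lie 0.684 kb from each other on the same chromosome. The 97 nucleotides from 9 to 105 of Gm48032 occur unchanged in Gm49371. Gm48031 matches the opposite strand of Gm49371 at 97.9% over 144 nucleotides, of which the first 120 are given with differing bases in capitals.
Gm48032: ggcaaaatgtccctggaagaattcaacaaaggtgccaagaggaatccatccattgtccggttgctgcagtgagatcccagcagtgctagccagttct
Gm48031: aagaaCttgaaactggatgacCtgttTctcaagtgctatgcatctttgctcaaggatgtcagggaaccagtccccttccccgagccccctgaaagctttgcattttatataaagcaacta
Gm49371, opposite strand: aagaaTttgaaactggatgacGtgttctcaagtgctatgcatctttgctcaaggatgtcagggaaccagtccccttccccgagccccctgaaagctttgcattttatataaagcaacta
In WT early libraries 1 to 8, Gm49371 stood at 61.0, 21.98, 49.9, 143, 76.3, 3.45, 42.8 and 21.99 FPKM. Gm48032 stood at 43.3, 15.4, 40.7, 126, 57.5, 1.09, 32.9 and 14.5, and Gm48031 at 27.9, 7.16, 20.49, 67.9, 28.6, 5.99, 17.1 and 3.85. Library 4 was highest in all 3 and library 5 next, while library 6 was lowest in Gm49371 and Gm48032. In MZ-KO early embryos all 3 were at 0 in library 5, and Gm49371 stood at 8.87, 45.1, 35.1, 39.04 and 34.7 in libraries 1, 2, 3, 4 and 6. A median of 3556 reads lay behind Gm49371 in WT early embryos.

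**Figure D4:**
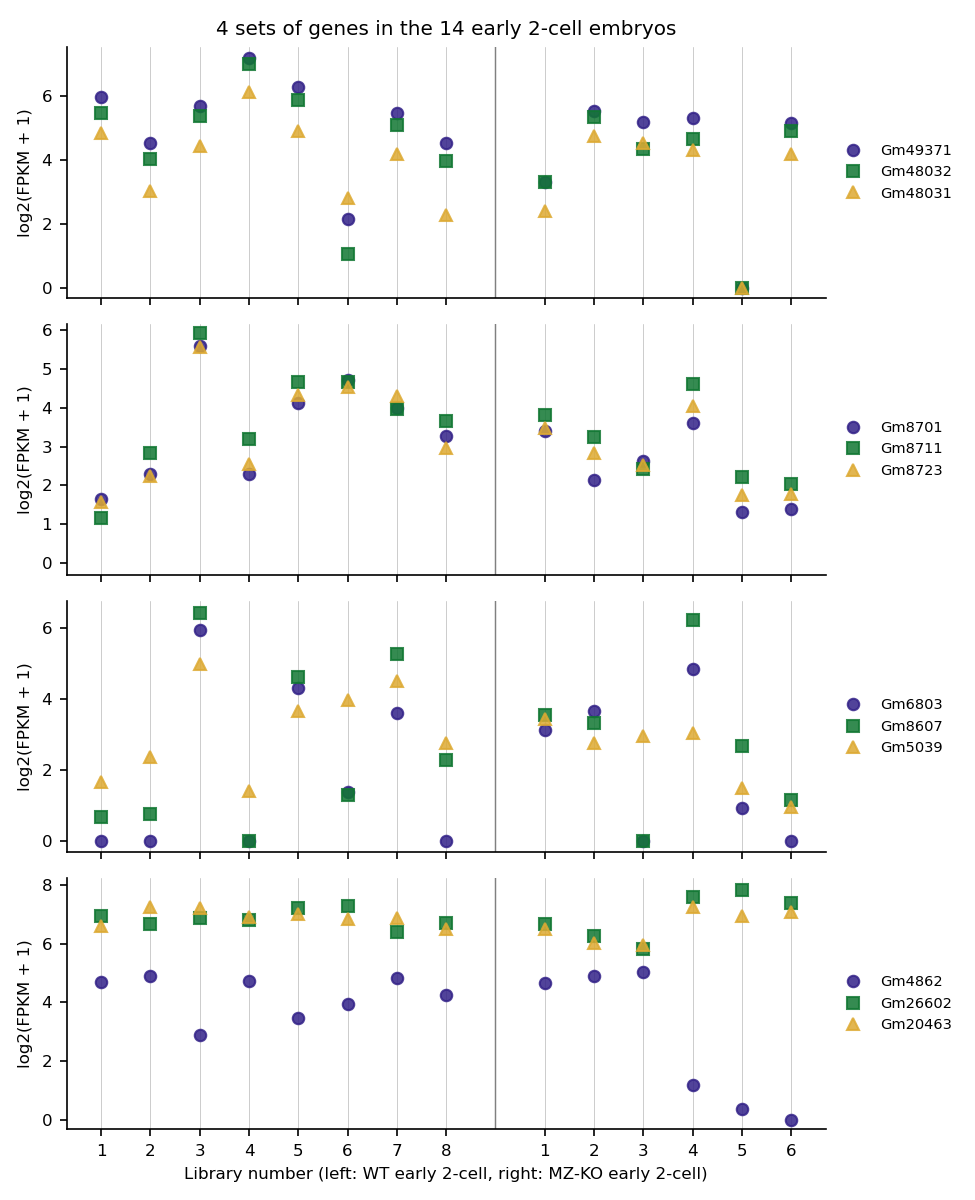
Level as log2(FPKM + 1) of 4 sets of genes (panels) in each of the 14 early embryos, WT at left and MZ-KO at right of the line. The upper 3 panels hold genes that resemble each other in sequence (WT library 4 is highest in the first, WT library 3 in the next 2), and the lowest panel holds Gm4862, Gm26602 and Gm20463, with Gm4862 at 1.30 FPKM or less in MZ-KO libraries 4 to 6.

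Within the early embryos labelled MZ-KO, some members separated libraries 1 to 3 from libraries 4 to 6. Gm4862 (chromosome 3, 139128334 to 139128771), 80.2% identical to Nme2, a nucleoside diphosphate kinase, stood at 24.0, 29.1 and 32.1 FPKM in libraries 1 to 3 and at 1.30, 0.296 and 0 in libraries 4 to 6. Gm26602 went the other way, with 100.2, 75.6 and 55.5 against 189, 225 and 167. Gm20463 had 90.1, 63.3 and 60.1 against 150, 122 and 132. Gm26712, Gm48704, Gm9729 and Gm47432 also split this way without overlap, while the other members overlapped. Duxf3 (0.764 to 2.83 against 5.54 to 8.81 FPKM) and Trp53 (0.311 to 0.823 against 0.889 to 1.11) split likewise. The first 3 genes were chosen after their values were seen, and no share over all genes was computed. The column order carries no label, so no test is given.

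Between genotypes, no member was called in early embryos. Of the 40 members tested, 0 were higher and 0 lower in MZ-KO than in WT (limma), where 2.58% of 7675 genes were higher and 0.704% lower. An unadjusted limma p below 0.05 was found for 9 of the 40 members and for 1635 of the 7675 genes. The ranges of the 2 genotypes overlapped for all 40, while 1.36% of all genes were higher and 0.365% lower without overlap. The mean was below WT for 32 of the 40, with a median log2 difference of -0.28 against 0.05 for all genes. Since the rule asked for a high WT mean in these same embryos, a lower value in the other genotype is favoured by the choice of members.

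The largest difference in early embryos belonged to Gm36079. It had 4.53, 18.1 and 43.9 FPKM (lowest, median, highest) in WT and 0, 2.08 and 22.1 in MZ-KO early embryos. Only MZ-KO library 4 lay above the WT mean, and the log2 difference was -2.27 (SE 0.62, 95% interval -3.59 to -0.94, limma adjusted p = 0.0572). Over the alternatives the adjusted p ran from 0.0181 to 0.222, the lowest without MZ-KO early library 4. Gm6494 differed by -1.52 (SE 0.49, adjusted p = 0.0944), and its 6 MZ-KO values of 0.650 to 8.67 FPKM were all below the WT mean of 12.6. Gm6736 differed by -0.57 (SE 0.19, adjusted p = 0.107). Without WT early library 3, the differences of Gm6736 and Gm12138 were -0.70 (adjusted p = 0.0182) and -0.56 (0.0342), both in the direction that the choice of members favours.

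In late embryos 3 of the 22 members tested were higher in MZ-KO than in WT and 0 lower, where 18.5% of 8772 genes were higher and 13.4% lower. The other 18 members did not pass the filter. Gm4862 is among the 3 and passed the filter only through MZ-KO late embryos. With all libraries in one fit, 7 of 22 members and 2249 of 8772 genes were higher, so the count of members depends on the fit. With median-ratio scaling 3 of 21 members were higher, while 1097 of 8599 genes were higher and 1628 lower and the median over all genes moved from 0.07 to -0.08. Ranges did not overlap, with MZ-KO above WT, for the same 3 members (8.21% of all genes tested, and 5.48% in the other direction). The rule asked for a low WT late mean, which favours higher values in MZ-KO. The 6 blood and immune markers summed to 14.3 to 23.2 FPKM in WT late and 31.3 to 156 in MZ-KO late embryos, mostly from Hba-a1 and Hba-a2 (means of 36.04 and 46.1 in MZ-KO), with Hbb-bt and Ptprc at 0 in both group means, and their part in these results was not tested.

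The 3 members were Gm26712, Gm4862 and Gm47666. Gm26712 (chromosome 6, 57689433 to 57689649) lies within Pyurf, a small protein-coding gene on the same strand, and touches its exon. It had 0, 2.50 and 4.80 FPKM (lowest, median, highest) in WT late and 9.14, 21.6 and 34.5 in MZ-KO late embryos, a log2 difference of 2.79 (SE 0.42, limma adjusted p = 0.000471). Pyurf had a mean of 0.374 in WT late and 1.83 in MZ-KO late embryos over its whole span. Gm4862 was listed at 0 in all 6 WT late embryos and stood at 1.88, 4.05 and 8.48 in MZ-KO late embryos. It passed the filter only through the MZ-KO libraries, so it had to differ, and no fitted difference or p is given for it against a group at 0.

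Gm47666, annotated as an antisense RNA, had 0.512, 1.45 and 2.19 FPKM in WT late and 2.76, 3.92 and 9.71 in MZ-KO late embryos, a log2 difference of 1.18 (SE 0.25, limma adjusted p = 0.00359). It lies wholly inside a protein-coding gene on the other strand and touches its exon. With no strand marked, its reads are also that gene's, so the difference cannot be assigned to the antisense RNA. In early embryos Gm47666 had the opposite order, with 13.7, 28.2 and 37.98 in WT and 8.86, 18.9 and 22.7 in MZ-KO, and the ranges overlapped (log2 difference -0.65, SE 0.23, limma adjusted p = 0.12).

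In eggs 0 of the 24 members tested were called in either direction (limma), where 0.212% of 6607 genes were higher and 0.121% lower in eggs labelled KO. An unadjusted limma p below 0.05 was found for 3 of the 24 members and for 577 of the 6607 genes. All 3 KO eggs were above all 3 WT eggs for Gm26712, Gm5401 and Gm47995 (9.94% of all genes tested, and 5.57% below without overlap). Gm26712 had 0, 0.629 and 0 FPKM in WT and 1.37, 1.52 and 3.34 in KO eggs, a log2 difference of 1.33 (SE 0.31, adjusted p = 0.226). Another 16 members did not pass the filter.

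**Figure D5:**
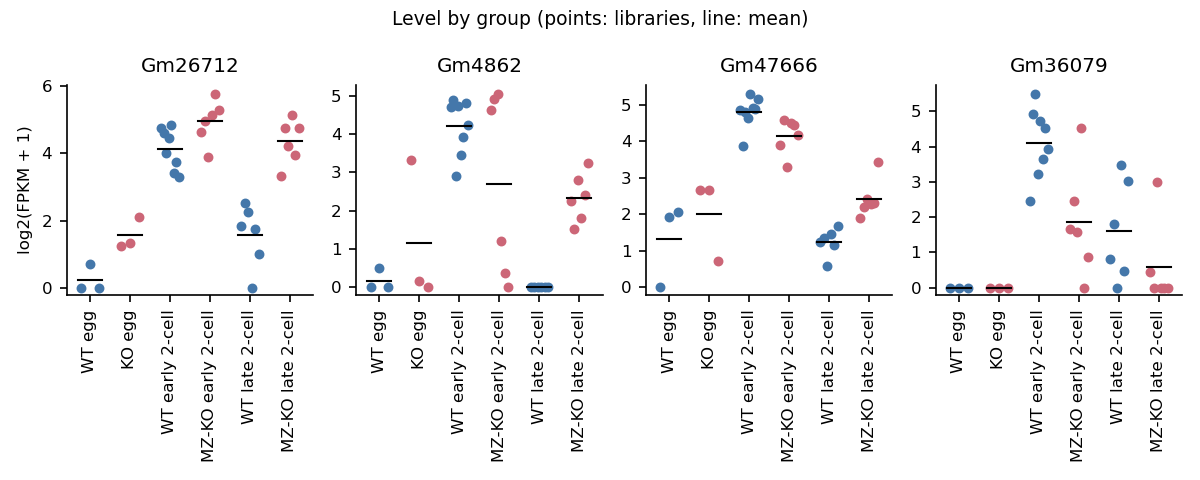
Level as log2(FPKM + 1) of 4 genes (panels) in every library (points) by group, with the group mean as a line; blue marks WT and red the groups labelled knockout. Gm26712, Gm4862 and Gm47666 lie apart between genotypes in late embryos, and Gm36079 overlaps between genotypes at each stage.

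The levels of the Dux and 2-cell list are given beside those of the members. From KO eggs to MZ-KO early embryos, 16 of the 23 genes of the Dux and 2-cell list that were tested rose and 0 fell, with a median log2 difference of 1.85. From early to late MZ-KO embryos, 16 of the 28 tested rose and 5 fell, against 0 and 33 of the 37 members. Between genotypes, 1 of 26 was higher and 0 lower in early embryos, and 1 of 29 was higher and 17 were lower in MZ-KO late embryos. In WT late embryos the list summed to 1057, 1861 and 2667 FPKM (lowest, median, highest) and the members to 116, 211 and 244. The rule chose members for a low WT late mean, so this contrast was set in advance. The list was put together with earlier results of these data known, so its counts are a description. The shares of all genes tested in these comparisons are those given above.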

How the data were processed

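Single eggs and 2-cell embryos were lysed and their poly(A) RNA was amplified with the SMART-seq v4 kit and tagmented, per the labels' protocols, which mark no strand. The authors deposited 1 table of FPKM values for 54532 genes. The submitters' processing notes name TopHat2, DESeq, DESeq2 and the build mm10, with versions not given in the sources used here. FPKM was taken over the genomic span, since low values were whole multiples of 1 read on that length (99.2% to 99.9% per library, within 0.1 read), which gave the reads behind each value. Introns and overlapping genes therefore enter a value.

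Differences were tested with limma 3.58.1 (trend and robust options, R 4.3.3) on log2(FPKM + 1) in the 2 groups compared, keeping genes that reached 1 FPKM in a number of libraries no lower than the size of the smaller group, with Benjamini-Hochberg adjustment over all genes and a threshold of 0.05. The procedure was tested on simulated data. Member transcripts were compared with GENCODE M21 transcripts with BLAST 2.17.0. Promoters came from RefSeq (GRCm38.p6), which matched 6 of the 40 members. Members named by rule were the 10 highest in WT early embryos, the 5 largest called differences per direction in each comparison, the 5 most and 3 least variable in WT early embryos, the protein-coding ones, and the 3 genes nearest each side of the threshold. Other members (such as Gm27684, Gm48031, Gm6494 and Gm2573) were named after their values were seen. The members and lists were chosen with earlier results of these data known. Alternatives changed the pseudocount, the filter, the scaling, the libraries in the fit and the overlapping members, and left out each library in turn. Some overlapping genes are not reported here.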

Additional observations from a re-analysis of the deposited data

Results flagged for a closer look

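In 24 of 120 sets of values examined, 1 library lay far from the others. A set was 1 of the 29 members named by rule, or the sum of the 40, in 1 group of 6 or 8 libraries. For normal values chance gives about 1 in 20. Many of these values lie near 0, and 5 members were named for their high spread in WT early embryos, so the 24 cannot be set against that rate. In WT early embryos the library far from the others was always library 3. It was lowest for Gm6736 (93.3 FPKM) and highest for Gm6803 (60.0), Gm8607 (84.6), Gm8711 (59.3) and Gm8723 (45.9). In MZ-KO early embryos it was library 4, for Gm8607 (73.3) and Gm36079 (22.1).

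In WT late embryos, the library far above the rest was library 2 for Gm48892 (10.5 FPKM) and Gm47432 (0.660), library 4 for Gm49371 (2.35) and Gm6018 (2.45), library 5 for Gm47996 (1.34) and library 6 for Gm7825 (6.70). In MZ-KO late embryos it was library 6 for Gm3470 (89.5), Gm47666 (9.71), Gm8607 (7.54) and Gm6018 (1.14). It was library 1 for Gm48892 (12.6) and Gm47432 (2.27), library 2 for Gm8711 (2.30), library 3 for Gm36079 (6.95), library 4 for Gm47996 (0.922), and library 5 for Gm7825 (7.23) and Gm13609 (3.98). Many of these values are of a few FPKM in groups otherwise near 0.

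The side of the WT mean was examined only for the 29 members named by rule, and no share over all genes was computed. For 4 of them, all knockout-labelled libraries lay on one side at one stage and on the other side at another stage. Without that share the 4 are a description. The difference between stages was not tested, and the rule used the WT values. Gm32983 differed by 1.19 FPKM in eggs and by -25.5 in early embryos (knockout-labelled minus WT mean). Gm12138 differed by -7.32 in eggs, -50.9 in early and 5.97 in late embryos. Gm47666 differed by -10.3 in early and 3.29 in late embryos, and Gm47995 by 0.659 in eggs and -11.2 in early embryos.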

How the results depend on the processing

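No paired analysis was possible because the columns carry no replicate numbers. Without the members that overlap another gene, 16 of 23 rose from egg to early embryo, 18 of 20 fell from early to late, and 1 of 10 was higher in MZ-KO late embryos. With all libraries in one fit, 2 members (Gm36079 and Gm6494) were lower in MZ-KO early embryos, as were 113 of 7675 genes, and 7 of 22 were higher in MZ-KO late embryos, as were 2249 of 8772 genes. A filter of 5 FPKM called 1 member lower in early embryos (Gm36079, limma adjusted p = 0.0424), and no filter called 1 lower in late embryos (Gm6803, 0.0405). Leaving out each library in turn gave 29 to 35 members higher from egg to early, 31 to 34 lower from early to late, 0 to 2 lower in MZ-KO early embryos, 3 to 5 higher and 0 to 1 lower in MZ-KO late embryos, and 0 called in eggs. The count of 5 came without MZ-KO late library 5, and Gm8607 was the member called lower, without WT late library 3 or MZ-KO late library 6. For the genes named by rule, 121 single-gene differences were recomputed: 1849 values kept their side of the threshold, 33 values (of 14 differences) became called, 11 lost their call (all of Gm8607 from early to late embryos), and 0 changed sign while called. Outside that rule, the calls of Gm27684, Gm6494 and Gm2573 were also lost in some alternatives. The alternative without WT early library 3 in the rule was chosen after seeing the data, and the cause of these changes was not tested.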
